A study of Mus musculus with 30 samples.

Results

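The genes described here are the replication-dependent histone genes of the mouse, taken as every gene of the time-course count table whose symbol starts with Hist1h, Hist2h, Hist3h or Hist4h. This rule used names and no measured value. It gave 70 genes of the 55154 that could be matched across the 3 count tables: 6 for the linker histone H1, 20 for H2A, 19 for H2B, 12 for H3 and 13 for H4. By symbol 56 lay in the large cluster on chromosome 13 (Hist1), 10 in the cluster on chromosome 3 (Hist2), 3 on chromosome 11 (Hist3) and 1 on chromosome 6 (Hist4). The annotation called 67 of them protein-coding and the other 3 (Hist1h2aj, Hist1h2al and Hist3h2bb-ps) pseudogenes.

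Satellite cells, which lie beside muscle fibres and rebuild them after damage, were sequenced as RNA from hind limb muscle of C57BL/6 mice, in 30 libraries that form 15 groups of 2. The time course held uninjured muscle and muscle taken 0.5, 1, 2, 4, 8, 16, 32 and 60 h after injection of barium chloride (BaCl2), which kills muscle fibres. Further sets were taken 7, 14 and 28 days after the same injury and from old mice: oQSC (no injury), oASC (2.5 days after BaCl2) and oFISC (freshly isolated cells, for which the labels also give BaCl2 as treatment, so that the presence of an injury is uncertain). Per the shared protocol paraformaldehyde was perfused through the mice ahead of cell isolation, polyadenylated RNA was measured, and cDNA was made with SMART-Seq v4. Since oFISC are labelled freshly isolated, it is uncertain whether these cells were fixed before isolation. No allele, transgene or exact age was given, and the labels do not state whether both libraries of a group came from separate mice, so p-values measure the spread between these libraries, which may be technical.

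Histones package DNA: H2A, H2B, H3 and H4 form the nucleosome core and H1 binds the linker DNA between cores. Cells that copy their genome need a large new supply, and the genes described here are known to be transcribed mostly in S phase. Their messenger RNAs are unusual, since most end in a short stem-loop and not in a poly(A) tail. The stem-loop is bound by SLBP, the stem-loop binding protein, and cleavage after it depends on the U7 small nuclear ribonucleoprotein, while the factor NPAT activates transcription of the clusters. A minority of histone transcripts is polyadenylated through a downstream AATAAA hexamer, in particular in cells that have left the cycle. A library made from polyadenylated RNA therefore captures only part of this RNA, and every level below is a level of what was captured.

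The 3′ ends show what these transcripts share and where they differ. In the GENCODE vM21 transcripts, 46 of the 70 members carried a 16-base stem-loop after the stop codon. Searched over the whole transcript, 99 of all 21901 protein-coding genes (0.452%) held it, of which 53 were not members. For 16 members no sequence after the stop codon was annotated. The search was for the known consensus of the histone stem-loop on the transcript strand. Of the members, 26 shared the letters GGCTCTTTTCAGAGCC and 7 H4 genes shared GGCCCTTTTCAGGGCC. The lines below give 30 bases around the stem-loop, 5′ to 3′ on the transcript strand with DNA letters, for members that the results turn on; capitals mark the stem-loop.
Hist1h2ap (H2A): aaaaaaaaaaaaGGCTCTTTTCAGAGCCat
Hist1h2ao (H2A): aaaaaaaaaaaaGGCTCTTTTCAGAGCCat
Hist1h2ae (H2A): aaaaaaaacaaaGGCTCTTTTCAGAGCCat
Hist1h2ag (H2A): atcgccaacaaaGGCTCTTTTCAGAGCCac
Hist1h2bg (H2B): tcctaacccaaaGGCTCTTTTCAGAGCCac
Hist2h3c2 (H3): attccccacaaaGGCTCTTTTCAGAGCCac
Hist1h4d (H4): ccaaaaaccaaaGGCCCTTTTCAGGGCCac
Hist1h1c (H1): aacaatccaaaaGGCTCTTTTCAGAGCCac
Hist1h2ap and Hist1h2ao, which reached the highest levels of all members, had the same letters in this window, with a run of 12 A touching the stem-loop. In no other member with a stem-loop did such a run exceed 7 A. An AATAAA hexamer after the stop codon was found in 19 members (3 H1, 3 H2A, 8 H2B, 1 H3 and 4 H4), among them Hist1h2bc, Hist1h2be, Hist1h1c, Hist1h2ac, Hist1h2ae, Hist3h2a and Hist4h4. Transcripts with no annotated coding sequence were searched for the hexamer over their length. These are letters in an annotation, and which ends were used in these cells was not measured.

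Many members are near copies of each other, which limits how far single genes can be told apart. The median share of 100-base windows that a member had in common with another gene was 64.5% for H2A, 49.8% for H3, 32.8% for H2B, 19% for H4 and 0.40% for H1. For Hist1h2ao and Hist1h2ap it was 92.7% and 92.2%. How the authors counted reads that fit several genes, or reads from overlapping models on the other strand, is not given in the sources used here, so values of single H2A and H3 genes are uncertain. Class sums are less open to shifts between copies within a class. A rule that drops or repeats such reads would still change them, and the classes share windows to unlike degrees. Hist1h2be also overlaps Hist1h1e in the annotation.

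Library totals ran from 9182407 to 57441790 counts, and the members took 0.00469% to 0.123% of them. Levels are given as CPM, counts scaled to a common library size, after TMM scaling of all 30 libraries together; fold changes and tests come from edgeR's quasi-likelihood test with Benjamini-Hochberg adjustment over all genes of a fit, and a gene is called at an adjusted p under 0.05. The filter on low counts kept 62 members in the time course, 45 in the 7 to 28 day libraries, 62 in the old cells and 63 in the fit of all libraries. Those left out of the time course were Hist1h2aa, Hist1h2ba, Hist2h2aa2, Hist2h2ab, Hist2h2bb, Hist2h3b, Hist3h2ba and Hist3h2bb-ps; Hist1h2aa and Hist1h2ba are known as testis variants. The libraries of 0.5 to 4 h stood apart within their groups: the member share of counts was 0.0454% and 0.00936% at 0.5 h, 0.0282% and 0.00995% at 1 h, 0.00778% and 0.0232% at 2 h, and 0.0256% and 0.00866% at 4 h. Pax7, the defining transcription factor of satellite cells, was higher in the same library of each of these pairs (781 against 134 CPM at 0.5 h, for example). In the old groups Pax7 was low, at 84.5 and 72.7 CPM in oQSC, 38.6 and 31.8 in oFISC and 10.5 and 10.2 in oASC, against 1746 and 1555 in uninjured muscle, and Cxcr4 and Itga7 were also lower in oQSC (5.69 and 7.06, and 77.2 and 104 CPM) than in uninjured muscle (26.7 and 27.9, and 440 and 352 CPM). Other satellite cell markers were higher there: Myf5 stood at 843 and 637 CPM in oQSC against 185 and 434, Vcam1 at 2473 and 2941 against 137 and 128, and Sdc4 at 20362 and 16846 against 586 and 756 CPM. In bulk samples, fewer cells of a type and less RNA per cell cannot be told apart.

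Uninjured satellite cells held little captured histone RNA, spread over all classes. The members summed to 87.3 and 89.5 CPM in the 2 uninjured libraries. Of this, H2A gave 21.3 and 26.2 CPM, H1 23.2 and 16.8, H4 22.6 and 17.7, H2B 14.1 and 21.6, and H3 6.16 and 7.16. No class dominated. Hist1h4d, an H4 gene, stood at 17.0 and 11.7 CPM and Hist1h1e, a linker histone gene, at 18.3 and 9.76 CPM. Per kilobase of transcript, Hist2h2aa1 (12.8 CPM per kb over the group) and Hist1h4d (12.6) were the highest, but Hist2h2aa1 ranged from 0 to 32.5 CPM over the 30 libraries with no order by group.

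**Figure D1:**
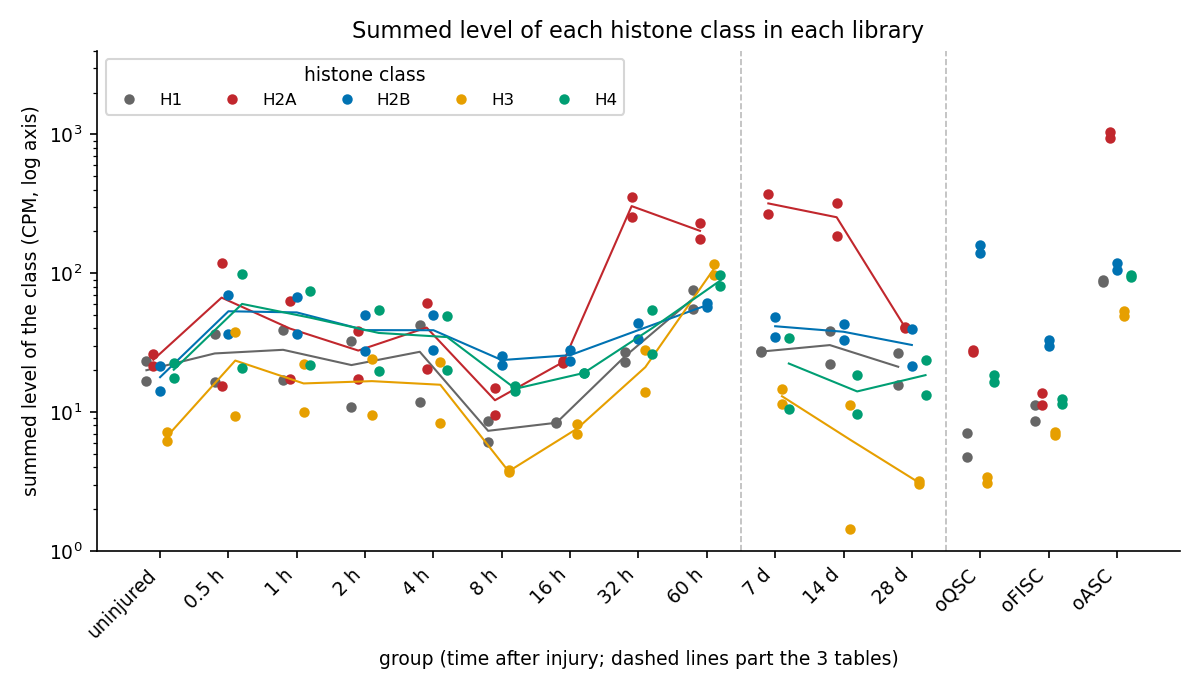
Summed level of the members of each histone class (CPM after TMM scaling, log axis) in every library, by group; points are the 2 libraries of a group and lines join the group means within the time course and within the 7 to 28 day set, with dashed lines between the 3 count tables. H2A is the highest class at 32 and 60 h, at 7 and 14 days and in oASC, and H2B is the highest in oQSC; H3 reaches its own highest level at 60 h, below H2A.

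Over the 9 groups from uninjured muscle to 60 h, 35 of 62 tested members changed between any of the groups (24.7% of all genes tested did), 22 without either uninjured library and 18 or 19 without the first or second 60 h library. In the first hours after injury all calls were rises, and at 2 and 4 h the share called higher was near that over all genes. At 0.5 h 10 of 62 tested members were called higher and 0 lower, where 6.88% of all genes tested were higher and 3.42% lower. The counts were 9 higher and 0 lower at 1 h (6.57% and 3.64% of all genes), 5 and 0 at 2 h (6.32% and 2.99%), and 5 and 0 at 4 h (7.18% and 3.8%). Hist1h2bc, an H2B gene with an AATAAA hexamer, was called at each of these times. It stood at 4.59 and 5.67 CPM before injury and at 24.4 and 19.2 CPM at 0.5 h. Both 0.5 h libraries lay above both uninjured ones, and the log2 fold change was 2.04 ± 0.35 (SE, adjusted p = 0.00555, edgeR). Hist1h2ac, the H2A gene that shares a promoter region with Hist1h2bc, went from 0.276 and 0.232 CPM to 10.9 and 3.20 CPM (log2 fold change 4.74 ± 0.87, adjusted p = 0.00748). Hist4h4 (4.03 ± 1.17, adjusted p = 0.0459) and Hist1h4h (3.53 ± 1.02, adjusted p = 0.0460) were nearer the threshold, and the libraries of 0.5 h differed widely for Hist1h4h, at 12.5 and 1.71 CPM.

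These early counts were sensitive to which libraries were kept. Without uninjured library 1 the counts at 0.5, 1, 2 and 4 h were all 0, and without uninjured library 2 they were 2, 1, 0 and 0. Without the first 0.5 h library 5 members were called. Leaving out the first or second library lowered the 1 h count to 2 or 5, the 2 h count to 2 or 3, and leaving out the second 4 h library lowered that count to 2. Hist1h2bc kept a rise of 1.95 to 2.25 at 0.5 h in the fits without 1 library, with adjusted p from 0.0139 to 0.0701, the highest without uninjured library 1. Hist1h2ac ceased to pass at 0.5 h without either uninjured library, Hist1h4h without either uninjured library or the first 0.5 h library, and Hist4h4 without any of the 4. DESeq2 called 16, 15, 11 and 11 members at these 4 times. Markers of other cell types also moved in these hours. The 7 neutrophil markers summed to 1.19 and 1.49 CPM in uninjured muscle and to 2.29 to 55.1 CPM in the 8 libraries of 0.5 to 4 h; S100a8 among them rose at 0.5, 2 and 4 h (3.91 ± 1.06 at 0.5 h, adjusted p = 0.0363), while Ly6g was at 0 in all 8. The 10 myofibre markers summed to 4.46 and 13.0 CPM and then 30.7 to 206 CPM, the 10 endothelial markers to 36.8 and 76.4 and then 85.7 to 273 CPM, and the 10 macrophage markers to 3.44 and 4.87 and then 13.2 to 96.5 CPM. Fibro-adipogenic markers were higher in the library with the larger member share in each pair (1362 against 744 CPM at 0.5 h, for example). The part of these markers and of the unequal Pax7 and member share in the early rises was not tested.

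By 8 and 16 h the sum was back near its start, at 67.8 and 55.4 CPM and at 87.4 and 79.9 CPM. At 8 h 4 members were called higher and 3 lower (16.1% and 14% of all genes), and at 16 h 3 higher and 2 lower (14.2% and 8.5%). Hist1h2bc stayed up, at 17.4 and 12.4 CPM at 16 h (log2 fold change 1.54 ± 0.34, adjusted p = 0.00853). Hist1h1e fell: its level was 1.27 and 1.07 CPM at 8 h, then 0.922 and 2.29 CPM at 16 h, all below both uninjured libraries, with log2 fold changes of -3.61 ± 0.78 (adjusted p = 0.00739) and -3.11 ± 0.75 (adjusted p = 0.0131). The others called at 8 h were Hist1h2bg, Hist1h2ac and Hist1h1d, which rose, and Hist2h3c2 and Hist2h2be, which fell; at 16 h they were Hist1h2bg and Hist1h2ac, which rose, and Hist2h3c2, which fell. Part of these names lies outside the rule for named genes and was chosen after their values were seen. Without uninjured library 1 or 2 the 8 h count was 2 and 2, and without the first or second 8 h library 1 and 1. For 16 h the counts were 0 and 1 without an uninjured library and 0 and 2 without a 16 h library. Hist1h1e ceased to pass at 8 h without either 8 h library (adjusted p = 0.0566 and 0.0686), and at 16 h without uninjured library 1 or the first 16 h library (adjusted p = 0.0844 and 0.117). Hist1h2bc ceased to pass at 16 h without either uninjured library or the first 16 h library (adjusted p from 0.0517 to 0.0904).

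Between 16 and 32 h the H2A genes rose together. All 11 members called were H2A genes of the Hist1 cluster, of 17 H2A genes tested, while 0.761% of all 22479 genes tested were higher and 0.0356% lower in this step. Reads that fit several near copies could enter several of these calls, which was not tested. The summed H2A level went from 23.3 and 22.6 CPM to 355 and 253 CPM. Over the same step H2B was at 28.2 and 23.2 and then 33.7 and 44.1 CPM, H3 at 8.21 and 6.95 and then 14.0 and 28.1 CPM, H4 at 19.2 and 19 and then 26.1 and 54.2 CPM, and H1 at 8.43 and 8.31 and then 23.1 and 27.1 CPM. H2A thus made up 78.5% and 62.3% of the member counts at 32 h, against 26.7% and 28.2% at 16 h. Median log2 fold changes were 5.01 for H2A, 2.18 for H3, 1.80 for H1, 1.32 for H2B and 1.26 for H4, beside 0.02 over all genes tested. None of the 45 members of the other 4 classes passed at an adjusted p under 0.05 in edgeR; at an unadjusted p under 0.05 there were 3 H2B, 5 H3, 3 H4 and 2 H1 genes.

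Hist1h2ap, an H2A gene at the chromosome 13 cluster, was among the largest of these rises. It stood at 1.19 and 0.790 CPM in uninjured muscle, 1.08 and 1.85 CPM by 16 h, then 85.9 and 57.4 CPM at 32 h. No 32 h library overlapped those at 16 h, and the log2 fold change from 16 h was 5.60 ± 0.64 (adjusted p = 0.00222). Its near copy Hist1h2ao went from 0.732 and 1.17 CPM to 65.7 and 44.4 CPM (5.84 ± 0.72, adjusted p = 0.00302). Hist1h2ah (5.77 ± 0.80), Hist1h2ag (5.50 ± 0.75), Hist1h2ai (5.40 ± 0.88) and Hist1h2aj (5.11 ± 0.73) had adjusted p from 0.00607 to 0.0142. The other 5 called were Hist1h2ak, Hist1h2ad, Hist1h2an, Hist1h2ab and Hist1h2af, some of them named after their values were seen.

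The count from 16 to 32 h was sensitive to the 16 h libraries. Without the first or the second 16 h library 1 member was called each time, and without the first 32 h library 6. Hist1h2ap stayed called in all 4 such fits, with log2 fold changes from 5.26 to 6.01 and adjusted p up to 0.0485. Hist1h2ao, Hist1h2ah, Hist1h2ag and Hist1h2aj ceased to pass without either 16 h library (adjusted p from 0.0607 to 0.116), as did Hist1h2ai, which also did so without the first 32 h library. DESeq2 called 15 members, and 15 were called in a fit without the libraries of 0.5 to 4 h, which was added after the data were seen. Macrophage markers were unequal in the 32 h pair: the 10 genes summed to 59.5 and 465 CPM, against 33.7 and 14.2 CPM at 16 h. The library with more of them had less H2A and more H1, H2B, H3 and H4. The part of these markers in the changes was not tested.

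**Figure D2:**
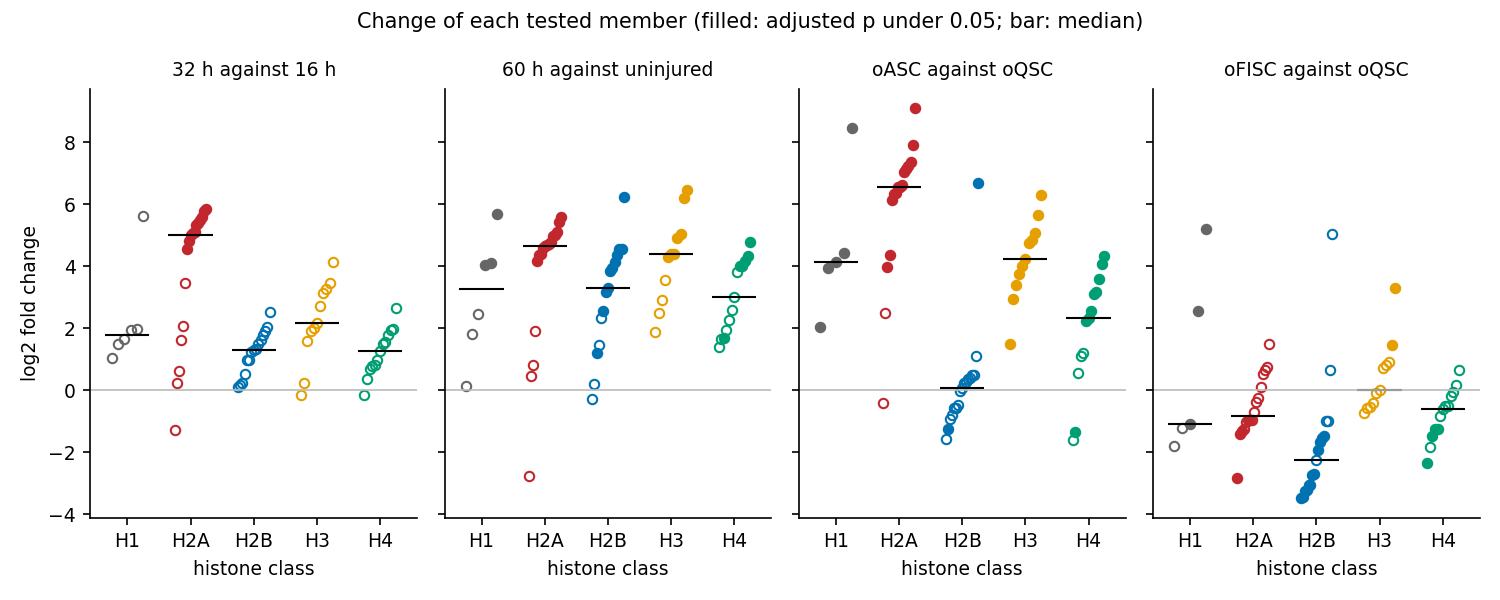
Log2 fold change of each tested member (edgeR; points, filled where called at an adjusted p under 0.05) by histone class in the main comparisons, with the class median as a bar. From 16 to 32 h and from oQSC to oASC the H2A genes sit above the other classes, with class medians of 5.01 and 6.55.

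Against uninjured muscle the 32 h libraries had 28 members higher and 0 lower (14.1% of all genes were higher and 6.44% lower), namely 13 of 17 H2A, 8 of 15 H2B, 4 of 11 H3, 1 of 13 H4 and 2 of 6 H1 genes. All comparisons with uninjured muscle share the same 2 uninjured libraries. Hist1h2ao had the largest rise (6.38 ± 0.75, adjusted p = 0.000560) and Hist1h2ap the next (6.20 ± 0.67, adjusted p = 0.000371). Without uninjured library 1 or 2 the count was 11 and 11, and without the second 32 h library 16.

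Many H2A and H2B genes lie head to head, so that a pair shares the stretch of DNA between its start sites. There were 14 such H2A and H2B pairs, 12 in the Hist1 cluster and 1 each in Hist2 (Hist2h2ac and Hist2h2be) and Hist3 (Hist3h2a and Hist3h2bb-ps), with 172 to 305 bases (median 246) between the annotated starts, and both genes were tested in 12 of them. From 16 to 32 h the H2A gene rose more than its partner in 12 of 12 pairs. The H2A gene was called in 9 and the H2B gene in 0, with medians of 5.22 and 1.33. In the pair Hist1h2ah and Hist1h2bk, for example, the changes were 5.77 ± 0.80 (adjusted p = 0.00607) and 1.92 ± 0.67 (adjusted p = 0.374). In the pair Hist1h2ap and Hist1h2br they were 5.60 and 1.34 ± 0.68 (adjusted p = 0.646). The partners share DNA and libraries, so the pairs are not independent of each other. H2A genes also shared more of their windows with other genes than H2B genes did (medians of 64.5% and 32.8%), and the part of this was not tested.

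**Figure D3:**
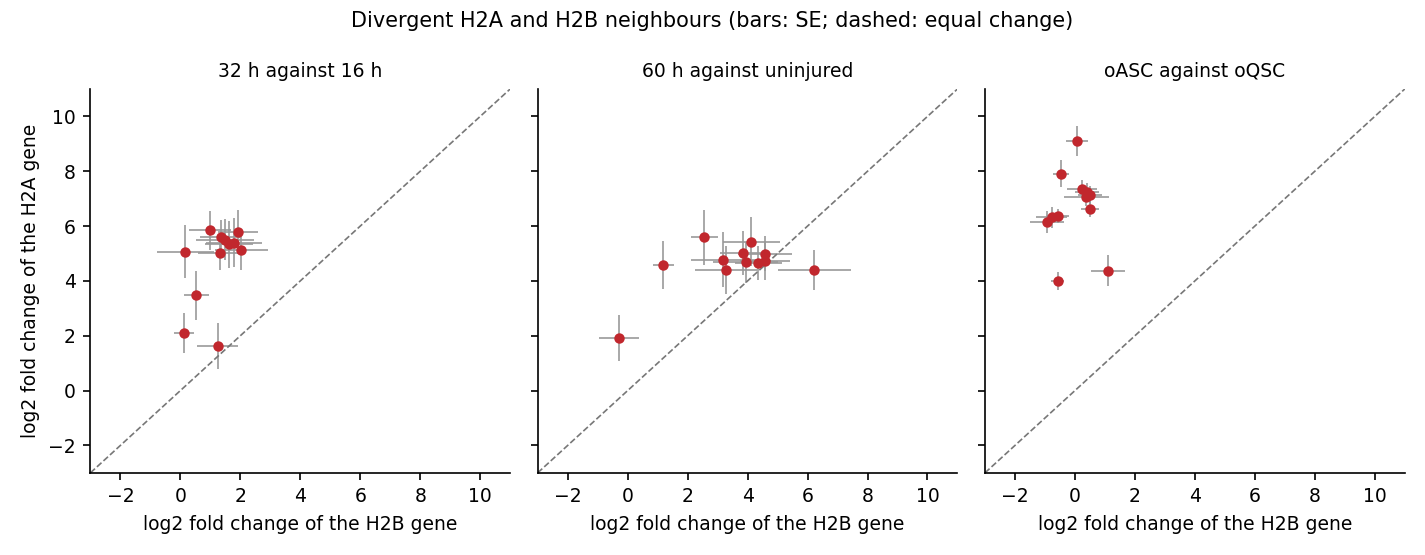
Log2 fold change of the H2A gene (vertical axis) against that of its H2B partner (horizontal axis) for each of the 12 head-to-head pairs tested (edgeR), with bars for the SE and a dashed line of equal change, in the comparisons given over the panels. The point lies above the line in 12 of 12 pairs from 16 to 32 h and from oQSC to oASC, and in 11 of 12 pairs from uninjured muscle to 60 h.

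Part of the stretch between the partners is shown for both pairs just named. The RefSeq starts of the H2A genes differ from the annotated starts used for the pairs, so the lines do not match these stretches exactly. The lines below show the 250 bases before the start site of both H2A genes just named, from RefSeq (GRCm38.p6), 5′ to 3′ on the minus strand on which both genes lie; capitals mark CCAAT and ATTTGCAT on either strand. The stretch for Hist1h2ah is chr13:22035644-22035893 and runs past the annotated start of Hist1h2bk on the plus strand. A TATAAA follows within the 50 bases after the RefSeq start of Hist1h2ah. The stretch for Hist1h2ap is chr13:21833476-21833725 and ends just short of the annotated start of Hist1h2br on the plus strand. It includes bases after the annotated start of Hist1h2ap.
Hist1h2ah: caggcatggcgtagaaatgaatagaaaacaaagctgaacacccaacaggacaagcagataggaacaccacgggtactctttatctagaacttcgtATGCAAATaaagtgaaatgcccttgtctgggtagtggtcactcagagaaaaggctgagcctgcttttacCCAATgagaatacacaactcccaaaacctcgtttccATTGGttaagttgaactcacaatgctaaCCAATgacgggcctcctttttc
Hist1h2ap: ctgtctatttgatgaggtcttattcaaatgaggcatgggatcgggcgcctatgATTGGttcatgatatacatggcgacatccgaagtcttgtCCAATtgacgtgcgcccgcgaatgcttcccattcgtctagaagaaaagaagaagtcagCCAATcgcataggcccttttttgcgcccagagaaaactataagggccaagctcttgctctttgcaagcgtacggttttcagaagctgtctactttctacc
Promoters of 62 members were in the RefSeq table, each 300 bases long (250 before and 50 after the start). CCAAT, on either strand, was in 85.48% of them against 37.41% of all 32851 promoters of the same length. TATAAA was in 56.45% against 13.62%, and the octamer ATTTGCAT, the known binding motif of POU2F1, in 22.58% against 1.74%. All H1, H2A, H2B and H3 promoters in the table held CCAAT, while 3 of 12 H4 promoters did. The octamer was in 7 of 18 H2A and 7 of 16 H2B promoters and in 0 of the other classes. Head-to-head partners start 172 to 305 bases apart, so their promoters overlap. The same octamer or CCAAT can thus be counted for both partners, and these counts are not independent. None of the 3 motifs contains another, and a match describes the sequence, not a bound site.

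At 60 h every class was high. The members summed to 577 and 467 CPM, with H2A at 228 and 175, H3 at 116 and 97.7, H4 at 96.3 and 81.1, H1 at 75.6 and 55.6 and H2B at 60.6 and 57.1 CPM. Against uninjured muscle 40 of 62 members were called higher and 0 lower (15.5% of all genes were higher and 12.8% lower): 13 of 17 H2A, 11 of 15 H2B, 7 of 11 H3, 6 of 13 H4 and 3 of 6 H1 genes. The median log2 fold change of the members was 4.04, beside 0.00 over all genes tested. The count was 27 to 30 when a single library of either group was left out. Macrophage markers were higher at 60 h too, with a sum of 226 and 51.5 CPM and 8 of 10 called; their part in these rises was not tested.

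The largest rises at 60 h, among members that reached 5 CPM, came from 3 classes. Hist1h3i, an H3 gene, went from 0.0919 and 0.0465 CPM to 6.30 and 6.00 CPM (6.48 ± 1.27, adjusted p = 0.00305), and Hist1h3c from 0.0919 and 0.0465 CPM to 4.89 and 5.32 CPM (6.21 ± 1.26, adjusted p = 0.00373). Both H3 genes had 1 count in each uninjured library, so the size and rank of their rises are uncertain. Hist1h1b, a linker histone gene, went from 0.643 and 0.279 to 31.9 and 14.6 CPM (5.69 ± 1.24, adjusted p = 0.00552). Its 60 h libraries differed by more than those of the H3 genes, yet both lay above all earlier libraries; without uninjured library 2 it did not pass (adjusted p = 0.0610). Hist1h2ae, an H2A gene, stood at 0.919 and 0.930 CPM before injury, 17.1 and 8.5 CPM at 32 h, then 51.5 and 38.7 CPM at 60 h (5.59 ± 1.00 against uninjured muscle, adjusted p = 0.00186).

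The H2A genes that led at 32 h were lower at 60 h in these libraries, and an H3 gene was higher. Hist1h2ap was at 28.2 and 21.6 CPM and Hist1h2ao at 20.5 and 15.2 CPM at 60 h, below both 32 h libraries, though neither fall was called. Hist2h3c2, an H3 gene of the chromosome 3 cluster, had 3.77 and 1.72 CPM in uninjured muscle, 0.119 and 0.153 CPM by 8 h, 3.86 and 5.59 CPM at 32 h, then 68.2 and 47.4 CPM at 60 h. It was the 1 member called between 32 and 60 h (3.61 ± 0.88, adjusted p = 0.0408; 1.04% of all genes were higher and 2.65% lower) and took 11.1% of the member counts at 60 h. Leaving out any of the 4 libraries of this step ended the call, with adjusted p from 0.144 to 0.216. With the libraries of 0.5 to 4 h left out 7 members were called in this step, and DESeq2 called 5.

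**Figure D4:**
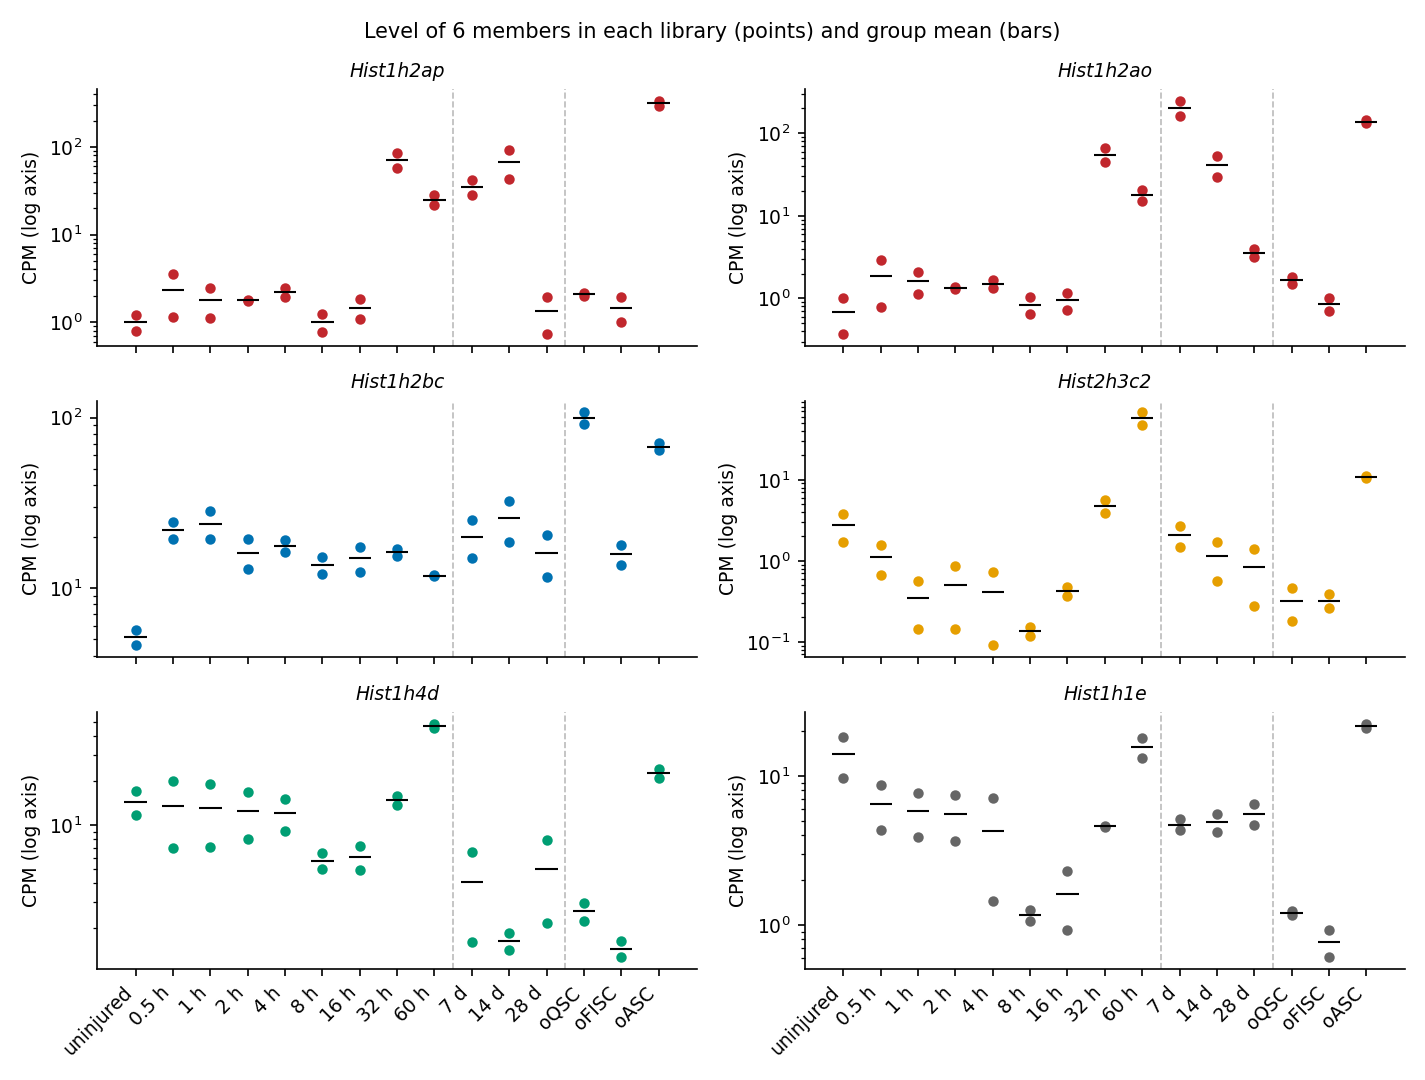
Level of 6 members in each of the 30 libraries (CPM after TMM scaling, log axis), in panels by gene with the groups along the horizontal axis, 1 point per library and a bar at the group mean. Hist1h2ap and Hist1h2ao rise at 32 h, Hist2h3c2 at 60 h, and Hist1h2bc is highest in oQSC.

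At 7 days Hist1h2ao carried the largest share of the captured histone RNA, 48.4% of the member counts. The members summed to 348 and 496 CPM, and Hist1h2ao had 160 and 248 CPM, against 1.01 and 0.372 CPM in uninjured muscle. Neither 7 day library was near the range of the time course, where its highest value was 65.7 CPM. In a fit of all 30 libraries its log2 fold change was 8.29 ± 0.70 (adjusted p = 2.41e-07). Of 63 members tested 18 were called higher and 0 lower (5.84% of all genes were higher and 5.35% lower), 12 of them H2A genes. Hist1h2ai (5.92 ± 0.93), Hist1h2ac (5.76 ± 0.84) and Hist1h2ap (5.17 ± 0.63, adjusted p = 2.92e-05) followed. The 7 day and the uninjured libraries come from different count tables, so table and group cannot be told apart in this comparison. Without uninjured library 1 or 2 the count was 8 and 9, and without the first or second 7 day library 11 and 9.

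The near copies Hist1h2ao and Hist1h2ap parted at this time. The ratio of their levels was 5.70 and 5.89 at 7 days and 4.36 and 2.07 at 28 days. In every other library, the 14 day ones included, it lay between 0.429 and 1.00. Together the pair made up 54.1% and 58.6% of the member level at 7 days, 33.6% and 25% at 32 h, 36.6% and 25.3% at 14 days, 35.1% and 33.1% in oASC and 2.53% and 1.3% in uninjured muscle. With 92.7% of the windows of Hist1h2ao shared, the split rests on few bases and on the authors' handling of such reads.

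By 28 days the H2A sum had dropped to 41.1 and 40.5 CPM, from 265 and 371 CPM at 7 days and 320 and 185 CPM at 14 days. Between 7 and 28 days 0 of 45 tested members were called higher and 2 lower (0.0826% and 0.212% of all genes): Hist1h2ao, from 160 and 248 to 3.20 and 3.98 CPM (-5.69 ± 0.48, adjusted p = 0.0280), and Hist1h2ap, from 28.1 and 42.2 to 0.734 and 1.92 CPM (-4.58 ± 0.64, adjusted p = 0.0475). Neither passed when any 1 of the 4 libraries was left out. DESeq2 called 10 members in this step and edgeR with no filter on low counts 9. Between 7 and 14 days edgeR called 0 members (0.0472% of all genes were higher and 0.0059% lower); 6 of 45 were under an unadjusted p of 0.05 and DESeq2 called 2. Against uninjured muscle 2 members were higher and 2 lower at 28 days (2.29% and 4.2% of all genes). Hist1h2bc was higher (1.63 ± 0.39, adjusted p = 0.0155), as was Hist1h2ao (2.46 ± 0.59, adjusted p = 0.0150). Hist1h2ae and Hist1h2an were listed at 0 in both 28 day libraries and were called lower from at most 0.930 and 0.459 CPM; these 3 were named after their values were seen. The count was 2 without uninjured library 1, 1 without the second, 1 without the first 28 day library and 0 without the second. Hist1h2bc ceased to pass without either uninjured library or the second 28 day library. DESeq2 called 7.

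In old cells without injury the captured histone RNA was mostly H2B. oQSC held 217 and 191 CPM in all, of which H2B gave 160 and 140 CPM, or 73.8% and 73.0% of member counts. Hist1h2bc alone stood at 107 and 92.0 CPM, against 4.59 and 5.67 CPM in the younger uninjured libraries. The log2 fold change was 4.27 ± 0.43 (adjusted p = 1.41e-06), and 4.33 ± 0.67 for Hist1h2bg (adjusted p = 8.53e-05), which had 16.2 and 14.5 CPM. Of 63 members 11 were called higher, 10 of them H2B genes, and 3 lower (12.3% and 9.31% of all genes). The lower ones were Hist1h1e (-3.53 ± 0.70, adjusted p = 0.000906), Hist1h4d (-2.47 ± 0.68, adjusted p = 0.0120) and, named after its value was seen, Hist2h3c2 (-3.08 ± 0.94, adjusted p = 0.0232). Without uninjured library 1 the count was 5, without the second 8, and without the first or second oQSC library 7 and 8. Hist1h2bc and Hist1h2bg stayed called in each of these fits, while Hist1h4d ceased to pass without uninjured library 1 or either oQSC library (adjusted p from 0.0644 to 0.118). Age and count table cannot be told apart here, and satellite cell markers differed in both directions as given above. Myofibre markers summed to 120 and 124 CPM in oQSC and macrophage markers to 80.2 and 67.5 CPM, with 7 and 5 of 10 called higher than in uninjured muscle. Their part in these differences was not tested.

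The freshly isolated old cells held less of this H2B RNA. oFISC may differ from oQSC in fixation before isolation as well as in injury, and the part of either was not tested. oFISC summed to 76.3 and 69.5 CPM, with H2B at 33.0 and 29.9 CPM. Against oQSC 20 members were lower and 4 higher (22.6% and 19.3% of all genes), and 11 of 17 tested H2B genes were among the lower ones. Hist1h2bc went to 13.6 and 17.9 CPM (-3.05 ± 0.24, adjusted p = 9.89e-05) and Hist1h2bg to 1.70 and 2.44 CPM (-3.25 ± 0.30, adjusted p = 0.000137). Hist3h2a, an H2A gene of chromosome 11, fell from 17.8 and 18.2 to 3.32 and 3.31 CPM (-2.82 ± 0.24, adjusted p = 0.000114). Hist1h1d, a linker histone gene, rose from 0.592 and 1.10 to 7.25 and 6.10 CPM (2.58 ± 0.42, adjusted p = 0.00187). Without the first oQSC library 15 members were called, and without the second oFISC library 12. With RLE scaling, which shifted the median of all genes in this comparison by 0.297 on the log2 scale, 6 members were higher and 15 lower. The first oFISC library had more myofibre marker RNA than the second (701 against 55.8 CPM over 10 genes); without it 24 members were called.

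The old cells 2.5 days after injury had the highest captured histone RNA of all groups. oASC summed to 1376 and 1293 CPM, of which H2A gave 1033 and 942 CPM (75.1% and 72.9% of member counts). H1 stood at 89.2 and 86.3 CPM, H4 at 93.5 and 97.7 CPM and H3 at 53.6 and 48.8 CPM, all above both oQSC libraries, while H2B at 106 and 118 CPM lay below them. Against oQSC 39 members were called higher and 2 lower (19% and 21.3% of all genes). Higher were 14 of 16 H2A, 11 of 11 H3, 5 of 5 H1 and 8 of 13 H4 genes, but 1 of 17 H2B genes. The medians were 6.55 for H2A, 4.23 for H3, 4.16 for H1, 2.34 for H4 and 0.06 for H2B, beside -0.33 over all genes tested. Leaving out any 1 library gave 36 or 37 members. Endothelial markers were lower in oASC, with a sum of 22.2 and 13.0 CPM against 126 and 157 CPM in oQSC and 8 of 10 called, and their part in these changes was not tested.

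Hist1h2ap reached 338 and 296 CPM in oASC from 1.97 and 2.18 CPM in oQSC (7.25 ± 0.32, adjusted p = 6.16e-06). This was the highest level of any member in any group, also per kilobase of transcript (657 CPM per kb over the group). Hist1h2ak had the largest change, from 0.0986 and 0.179 to 89.4 and 68.6 CPM (9.10 ± 0.55, adjusted p = 1.15e-05). Its level in oQSC was very low, so the rank of this change rests on few counts. Its head-to-head partner Hist1h2bn did not pass the test, at 3.29 and 3.28 CPM in oQSC and 2.88 and 4.03 CPM in oASC (0.06 ± 0.36, adjusted p = 0.925). In 12 of 12 tested pairs the H2A change was above the H2B change, with the H2A gene called higher in 12 and the H2B gene in 0. Among the core H4 genes, Hist1h4i rose from 1.94 and 3.01 to 50.5 and 50.4 CPM (4.34 ± 0.28, adjusted p = 1.39e-05). The linker gene Hist1h1c rose from 4.57 and 2.30 to 52.3 and 53.8 CPM (3.94 ± 0.41, adjusted p = 0.000138). The members called lower were Hist1h2be (-1.24 ± 0.39, adjusted p = 0.0350), which ceased to pass without either oQSC library or the first oASC library, and, named after its value was seen, Hist4h4 (-1.35 ± 0.37, adjusted p = 0.0199).

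Set beside the 60 h libraries, which are the same time after injury, oASC had 6 members higher and 0 lower (1.17% and 1.03% of all genes): Hist1h2ak (4.23 ± 0.75), Hist1h2ap (3.67 ± 0.56, adjusted p = 0.00159), Hist1h2aj (3.47 ± 0.63), Hist1h2ao (2.96 ± 0.53), Hist1h2an (2.84 ± 0.53) and Hist1h2bc (2.51 ± 0.40, adjusted p = 0.00206). Hist1h2ap and Hist1h2bc stayed called in all 4 fits without 1 library, which gave counts of 2 without either 60 h library and 3 without either oASC library. DESeq2 called 10. The order of genes also differed between these groups. Hist2h3c2, with 68.2 and 47.4 CPM at 60 h, had 11.2 and 10.5 CPM in oASC, a difference that did not pass the test. Hist2h3c1 has the same letters around its stem-loop and was named after its values were seen. It was not lower in oASC, at 15.3 and 14.5 CPM against 14.1 and 11.6 CPM at 60 h. Age and count table cannot be told apart in these comparisons.

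The response to injury was also compared directly between ages, as the change from oQSC to oASC minus the change from uninjured muscle to 60 h. Of 63 members tested 2 differed upward and 4 downward (3.29% and 3.99% of all genes), so that the upward count is no more than the share over all genes would give. DESeq2 called 17. Upward were Hist1h1e (4.00 ± 0.92, adjusted p = 0.0106) and Hist1h2ap (2.58 ± 0.78, adjusted p = 0.0478). Downward, all H2B genes, were Hist1h2bq (-5.14 ± 1.14, adjusted p = 0.00834), Hist1h2bn (-4.06 ± 1.22, adjusted p = 0.0470, named after its value was seen), Hist1h2br (-3.95 ± 1.13, adjusted p = 0.0365) and Hist1h2bg (-3.01 ± 0.84, adjusted p = 0.0325). Leaving out 1 of the 8 libraries gave 0 without uninjured library 1, 1 without the first oQSC, the first oASC or the second 60 h library, 2 without the second oQSC, the second oASC or the first 60 h library and 3 without uninjured library 2. Slbp also differed downward (-3.94 ± 0.72, adjusted p = 0.00205).

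The share of the captured level that came from the 19 members with an AATAAA hexamer moved with the groups. It was 30.8% and 48.0% in uninjured muscle, between 52.3% and 59.9% in the libraries from 0.5 to 16 h, 17.0% and 26.6% at 32 h and 27.4% and 29.5% at 60 h. At 7 days it was 23.8% and 19.8%, at 14 days 18.3% and 37.6% and at 28 days 70.7% and 64.8%. Among old cells it was 72.6% and 72.1% in oQSC, 66.3% and 66.7% in oFISC and 17.4% and 19.1% in oASC. Hist1h2bc alone gave 49.6% and 48.1% of the member level in oQSC, 17.8% and 25.7% in oFISC and 5.26% and 6.34% in uninjured muscle. From 16 to 32 h 0 of 18 tested members with the hexamer were called higher, and 11 of 44 without it (0.761% of all genes). Of these 11, 6 had no stem-loop in the annotated transcripts. From uninjured muscle to 60 h 8 of 18 with the hexamer and 32 of 44 without it were called higher (15.5% of all genes). From oQSC to oASC 7 of 18 with it were higher and 2 lower (median 0.84), against 32 of 44 higher without it (median 4.04). Over all genes 19% were higher and 21.3% lower in this comparison. The hexamer and the class overlap, since 8 of the 19 are H2B genes and 3 are H2A genes, and their parts were not told apart. For 16 of the 70 members, 7 of them H2A genes, no sequence after the stop codon was annotated, so a hexamer there may be missed.

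**Figure D5:**
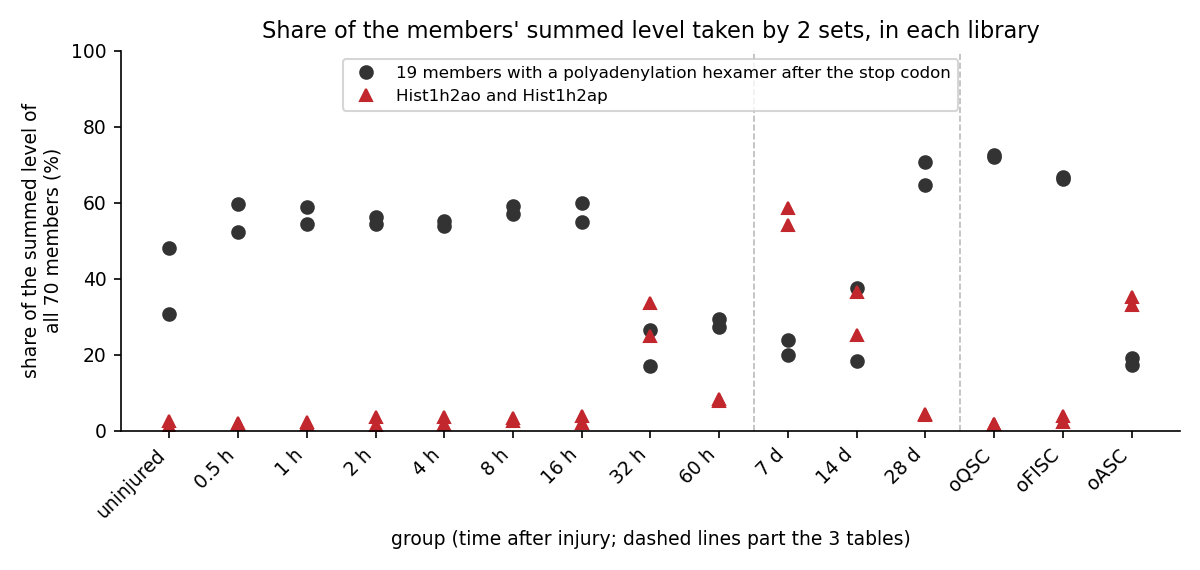
Share of the summed member level (percent) from the 19 members with an AATAAA hexamer after the annotated stop codon (circles) and from Hist1h2ao and Hist1h2ap (triangles), in each of the 30 libraries by group. The hexamer share lies between 17.0% and 26.6% at 32 h, at 7 days and in oASC, and between 64.8% and 72.6% in oQSC, oFISC and at 28 days.

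Among the genes that transcribe and process histone RNA, Slbp, the stem-loop binding protein, rose within 0.5 h from 8.82 and 10.3 CPM to 187 and 165 CPM (4.15 ± 0.61, adjusted p = 0.00318) and was at 254 and 255 CPM at 32 h. Its step from 16 to 32 h did not pass the test (0.63 ± 0.54, adjusted p = 0.867), the 16 h libraries being at 263 and 64.8 CPM. In oQSC it was already at 268 and 204 CPM, and its change to 177 and 170 CPM in oASC did not pass (-0.46 ± 0.23, adjusted p = 0.144). Of 17 tested genes of histone RNA transcription and 3′ processing, 7 rose and 1 fell at 8 h (16.1% and 14% of all genes), 4 rose and 1 fell at 32 h (14.1% and 6.44%), 4 rose and 0 fell at 60 h (15.5% and 12.8%), and 0 changed from 16 to 32 h (0.761% and 0.0356%). From oQSC to oASC 11 rose and 1 fell (19% and 21.3%). Among them were Npat, the activator of the clusters (1.75 ± 0.24, adjusted p = 0.000550), Casp8ap2, which acts with it (1.59 ± 0.20, adjusted p = 0.000384), and Lsm11, of the U7 particle (1.19 ± 0.39, adjusted p = 0.0408). None of these 3 was called at 60 h against uninjured muscle.

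Most chaperones that carry histones were higher at 32 h, at 60 h and in oASC. Of 20 chaperone genes 13 rose and 3 fell at 32 h against uninjured muscle (14.1% and 6.44% of all genes), 14 rose and 3 fell at 60 h (15.5% and 12.8%), and 14 rose and 2 fell from oQSC to oASC (19% and 21.3%). The 3 that rose from 16 to 32 h were Asf1b, which carries H3 and H4 (4.03 ± 0.58, adjusted p = 0.00634), and Chaf1b (3.97 ± 0.79, adjusted p = 0.0399) and Chaf1a (2.75 ± 0.55, adjusted p = 0.0404), subunits of the assembly factor CAF-1. The 25 S-phase genes summed to 237 and 207 CPM in uninjured muscle, 833 and 482 by 16 h, 4096 and 2320 by 32 h, 4282 and 4671 by 60 h and 6374 and 6255 CPM in oASC. Of them 12 rose and 0 fell from 16 to 32 h (0.761% and 0.0356% of all genes), with Rrm2, a subunit of ribonucleotide reductase, at 5.18 ± 0.45 (adjusted p = 0.000211). In oQSC their sum was 1143 and 1116 CPM, above the younger uninjured libraries, while the H2A sum was 28.1 and 27.0 CPM.

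Replacement histones, whose RNA is polyadenylated and which are made also outside S phase, rose early in part and late in part. H3f3b, a gene for H3.3, rose within 0.5 h from 163 and 209 CPM to 2482 and 2835 CPM (3.8 ± 0.45, adjusted p = 0.00129) and fell from oQSC to oASC (-2.09 ± 0.31, adjusted p = 0.000918). H2afz, the gene of H2A.Z, went from 53.9 and 54.0 CPM to 1135 and 1129 CPM at 60 h (4.38 ± 0.65, adjusted p = 0.000633), and its change from oQSC to oASC did not pass the test (0.42, adjusted p = 0.207). Cenpa, the H3 variant of centromeres, went from 2.67 and 1.15 CPM at 16 h to 14.0 and 35.8 CPM at 32 h (3.69 ± 0.63, adjusted p = 0.0174), 179 and 170 CPM at 60 h, and from 3.71 and 4.05 CPM in oQSC to 147 and 149 CPM in oASC (5.24 ± 0.24, adjusted p = 6.16e-06). Of 11 such genes 3 rose at 0.5 h (6.88% of all genes), 6 at 32 h (14.1%) and 5 at 60 h (15.5%) with 0 falls, 1 rose from 16 to 32 h (0.761%), 4 rose and 2 fell from oQSC to oASC (19% and 21.3%), and 8 fell from oQSC to oFISC (22.6%).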

How the data were processed

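The authors deposited 3 tables of read counts per gene, for 18 time-course libraries, 6 libraries of 7 to 28 days and 6 libraries of old cells. Per the submitters' processing notes, Trimmomatic 0.36, HISAT2 2.1.0, SAMtools 1.3 and StringTie 1.3.3 were used with mm10; how reads were counted, on which strand, with which annotation and with what rule for reads that fit several genes is not given in the sources used here. The uninjured libraries are headed 0hpi in the time-course table. Polyadenylated RNA with near-identical gene copies can move the values of single members.

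Counts were fitted with edgeR 4.0.16 (TMM, filterByExpr, quasi-likelihood F test) in R 4.3.3: 22479 genes in the time course, 16954 at 7 to 28 days, 30099 in old cells, and 28823 in a fit of all 30 libraries for comparisons across tables, where table and group cannot be told apart. Calls were made at 0.05 on p-values adjusted by Benjamini and Hochberg. SE is the log2 fold change divided by the square root of F. Levels are CPM after TMM. The scripts were tested on simulated data. The alternatives were DESeq2 1.42.0, RLE scaling, no filter, a replicate block, 6 ribosomal RNA models left out and each library left out; a fit without the 0.5 to 4 h libraries was added after the data were seen. Sequences came from GENCODE vM21 and RefSeq GRCm38.p6; protein sequences were not used here. Members and gene lists were chosen with earlier results of these data known. Named members are the up to 6 called with the largest rise and fall per comparison at 5 CPM or more in the higher group, the 2 of highest mean CPM per class, and those that failed the filter. From each gene list other than cell type markers, up to 4 called genes of smallest adjusted p were taken per comparison, in either direction. Slbp, Npat, Lsm11, Casp8ap2, H2afz and H3f3b were always named.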

Additional observations from a re-analysis of the deposited data

Results flagged for a closer look

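For 5 named members the change from oQSC to oASC differed from the change from uninjured muscle to 60 h, by the test of the difference itself in the fit of all 30 libraries (edgeR, 63 members tested, Benjamini-Hochberg adjustment over all genes). Over all genes tested 3.29% differed upward and 3.99% downward, and of the members 2 and 4 did. Hist1h1e differed by 4.00 (log2, adjusted p = 0.0106): it stood at 18.3 and 9.76 CPM in uninjured muscle and 18.1 and 13.2 CPM at 60 h, but at 1.25 and 1.16 CPM in oQSC and 22.4 and 20.9 CPM in oASC. Hist1h2ap differed by 2.58 (adjusted p = 0.0478). The H2B genes Hist1h2bq (-5.14, adjusted p = 0.00834), Hist1h2br (-3.95, adjusted p = 0.0365) and Hist1h2bg (-3.01, adjusted p = 0.0325) differed the other way. Hist1h2bq, for example, went from 0.184 and 0.232 to 3.7 and 6.6 CPM in the younger cells and from 4.08 and 3.46 to 2.31 and 2.76 CPM in the old ones. In the 8 fits without 1 library, Hist1h2bq failed in 2 (without uninjured library 1 or the first oASC library) and Hist1h1e in 3 (without uninjured library 1, the second 60 h or the first oQSC library), while Hist1h2ap, Hist1h2br and Hist1h2bg failed in all 8.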

How the results depend on the processing

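No named member changed direction under any alternative run. RLE scaling kept every count of members within 1.5 times the main count; it moved the median of all genes by over 0.1 (log2) in 7 of the comparisons, by -0.239 at 32 h and 0.297 for oFISC against oQSC, and leaving out the ribosomal RNA models moved it by -0.138 at 32 h. DESeq2 called 16 members at 0.5 h, 15 at 1 h, 11 at 2 h, 11 at 4 h, 5 from 32 to 60 h, 2 from 7 to 14 days, 10 from 7 to 28 days, 7 at 28 days against uninjured muscle, 10 for oASC against 60 h and 17 for the difference between the ages. With no filter on low counts 2 were called from 32 to 60 h, 2 from 7 to 14 days and 9 from 7 to 28 days, and without the ribosomal RNA models 1 from 7 to 28 days. The fit without the 0.5 to 4 h libraries, added after the data were seen, called 8 at 16 h and 7 from 32 to 60 h. The cause of these moves was not tested. The replicate block gave 0 from 32 to 60 h and 1 from 7 to 28 days, and 5 of 68 named calls were lost under it; of the 18 pairs of groups compared with each other 1 had a correlation of same-numbered deviations over 0.1 (range -0.0699 to 0.277), so the numbers were not taken as pairs. Among groups not compared with each other it ran from -0.677 (0.5 and 2 h) to 0.626 (0.5 and 1 h), and the block gave 31 members for any change.

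Leaving out 1 library at a time gave 0 to 9 members at 0.5 h, 0 to 5 at 1 h, 0 to 3 at 2 h, 0 to 5 at 4 h, 1 to 2 at 8 h, 0 to 2 at 16 h, 11 to 20 at 32 h, 27 to 30 at 60 h, 18 to 38 for any change, 1 to 9 from 16 to 32 h, 0 to 0 from 32 to 60 h, 0 to 1 from 7 to 14 days, 0 to 0 from 7 to 28 days, 12 to 24 for oFISC and 36 to 37 for oASC against oQSC, 8 to 11 at 7 days, 0 to 2 at 28 days and 5 to 8 in oQSC against uninjured muscle, 2 to 3 for oASC against 60 h, and 0 to 3 for the difference between the ages. Of 292 such values of named members 181 stayed called. A group left with 1 library is assumed to vary like the others. Without TMM scaling the mean class sums were, at 32 h, 29.2 CPM for H1, at 60 h, 50.3 for H2B, 91.6 for H3 and 76.1 for H4, and in oASC 77.7 for H1, 876 for H2A, 99.0 for H2B, 45.4 for H3 and 84.7 for H4; with the ribosomal RNA models left out oASC had 92.7 for H1 and 101 for H4. Other groups moved too without TMM scaling. The H2B mean in oQSC was 104 CPM against 150 CPM with it, and the H2A mean at 7 days was 453 against 318 CPM. Depth limits the low members: 8 of 70 did not pass the filter in the time course and 25 did not at 7 to 28 days.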
